A study of Mus musculus with 28 samples.

Results

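The mitochondrial route of programmed cell death was followed here through 9 genes: the initiator caspases *Casp8* and *Casp9*, the apoptosome scaffold *Apaf1*, the pore formers *Bax* and *Bak1*, the survival proteins *Bcl2*, *Bcl2l1* (BCL-XL) and *Mcl1*, and the BH3-only gene *Bbc3* (PUMA). They were taken by gene symbol, and all 9 were found among the 45318 genes counted. All 9 also had enough reads to be tested, among 20345 genes at the 3-day and 24646 genes at the 21-day follow-up. Heart tissue of male Hsd:ICR(CD-1) mice, an outbred stock, was sequenced as total RNA, 1 library per sample. The paper describes the 21-day transcriptome samples as taken distal to the infarct. Its discussion places samples of the study in the left ventricular remote zone, away from the infarct. Its methods name that zone for electron microscopy only, and its main text gives no separate site for the 3-day libraries. Myocardial infarction (MI) was made by tying off the left anterior descending coronary artery at postnatal day 1, when the mouse heart can regenerate, or at postnatal day 7, when it largely cannot, and sham mice had the operation without infarction. Groups are named by the day of operation, the operation and the days of follow-up, so that 7d-MI + 3 is an infarct made at day 7 and collected 3 days later. Both operations at both ages were followed for 3 days (4 libraries per group) and for 21 days (3 libraries per group). Sample names carry a prefix whose meaning is not given in the sources used here. No prefix occurs in more than 1 group. Within 7d-SHAM + 3 and within each 21-day group all libraries carry the same one. Whatever a prefix stands for cannot be told apart from the group in any comparison. All mice were otherwise of the same stock and sex, and none carried an engineered allele by the labels. The design asks whether the response to infarction differs between the ages and whether it lasts.

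In the intrinsic pathway, BAX and BAK1 open the outer mitochondrial membrane and let cytochrome c out, which APAF1 assembles into the apoptosome that activates caspase-9. BCL2, BCL-XL and MCL1 hold BAX and BAK1 in check, and BH3-only proteins such as PUMA release that hold. Caspase-8 starts the pathway that runs from death receptors at the cell surface and is linked to the mitochondrial one through BID. Many of these proteins are controlled by binding, cleavage and location, so that a transcript level is not a measure of cell death. Adult heart muscle cells are known to keep little APAF1, and MCL1 is needed for their survival.

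Levels are given as CPM, the reads of a gene relative to the size of its library, with library sizes scaled by edgeR's TMM method within a follow-up. Levels are compared between genes only per length, as TMM-scaled RPKM, which is CPM divided by gene length in kilobases. A gene is said to have risen or fallen, or to be called, at a Benjamini-Hochberg adjusted p under 0.05 over all genes tested by the quasi-likelihood test of edgeR. The 2 follow-ups differ in library kit and instrument, so that levels were not compared between them. Total counts per library were 33077962 to 51942648 at 3 days and 40514177 to 168550985 at 21 days. Ribosomal RNA loci took at most 0.195% of the reads at 3 days but 0.523% to 78% at 21 days, and genes of the mitochondrial genome took 37.2% to 61% at 3 days. The 6 cardiomyocyte markers were present in every group. In bulk tissue, fewer cells of a type and less RNA per cell cannot be told apart.

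The upstream sequences of *Apaf1* and *Casp8* are shown because both genes were called in 7d-MI + 3 hearts and their promoters differ in composition. Each runs from 250 bases before to 50 bases after an annotated RefSeq start (GRCm38.p6) and is written 5′ to 3′ on the strand of the gene. Capitals mark 6 motifs searched by their letters on both strands: the GC box (GGGCGG), the CCAAT box (CCAAT), the E-box (CACGTG), the AP-1 site (TGANTCA), the interferon regulatory factor core (AANNGAAA) and the TATA box (TATAAA).
Apaf1, chr10:91082694-91082993, minus strand: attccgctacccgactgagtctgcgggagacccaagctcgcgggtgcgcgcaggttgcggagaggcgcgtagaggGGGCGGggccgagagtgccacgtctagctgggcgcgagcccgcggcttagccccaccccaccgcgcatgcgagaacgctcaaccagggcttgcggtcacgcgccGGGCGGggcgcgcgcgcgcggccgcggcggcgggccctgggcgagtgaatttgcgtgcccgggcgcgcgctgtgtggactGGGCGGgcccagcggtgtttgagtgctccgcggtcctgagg
Casp8, chr1:58802252-58802551, plus strand: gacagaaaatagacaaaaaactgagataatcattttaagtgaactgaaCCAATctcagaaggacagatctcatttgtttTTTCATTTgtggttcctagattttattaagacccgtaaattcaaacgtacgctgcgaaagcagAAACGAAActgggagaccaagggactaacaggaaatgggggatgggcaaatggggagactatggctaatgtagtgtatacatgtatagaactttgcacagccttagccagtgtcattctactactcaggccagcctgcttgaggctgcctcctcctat
The *Apaf1* promoter was 74.7% G or C with 3 GC boxes, and the *Casp8* promoter was 42% G or C with no GC box, 1 CCAAT box and 2 interferon regulatory factor cores. The *Apaf1* window spans the 5′ end of the gene as counted (91082770). The *Casp8* window lies inside the gene as counted, which begins at 58795374, so that an outer start is set beside an internal one. All 9 genes had an entry, 13 promoters in all. A GC box was present in 8 of these 13 and in 35.7% of 32851 promoters of the same length. The 8 include 3 windows of *Bbc3*, of which 2 overlap and share GC boxes, so that the 13 are not separate promoters. The interferon regulatory factor core was in 3 of 13 (*Casp8* and 2 of *Bcl2l1*) against 23.9%, the E-box in 2 (*Bax* and 1 of *Bbc3*) against 7.15%, and the CCAAT box in 2 against 37.4%. No TATA box or AP-1 site was found in the 13, against 13.6% and 7.81% of all promoters. These are matches of letters in this window only.

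After infarction at day 7, 4 of the 9 genes were higher 3 days later and none was lower. They were the scaffold *Apaf1*, the pore former *Bak1*, the survival gene *Bcl2* and the death receptor caspase *Casp8*, so that genes known to promote and to restrain death were both among them. Of all genes tested in 7d-MI + 3 against 7d-SHAM + 3, 34% were called and 19.8% were higher.

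*Apaf1* (ENSMUSG00000019979, chromosome 10, 90989311 to 91082770, GRCm38, minus strand) moved most. Its level was 21.9, 26.4, 21.9 and 25.4 CPM in 7d-MI + 3, against 11.5, 9.81, 11.3 and 10.3 CPM in 7d-SHAM + 3. In 1d-MI + 3 it was 11.1, 10.5, 12 and 14 CPM, and in 1d-SHAM + 3 it was 13.4, 10.1, 12.5 and 11.4 CPM. The 4 libraries of 7d-MI + 3 lay above all 12 others, which overlapped with each other. Against 7d-SHAM + 3 the log2 fold change was 1.16 (SE 0.13, adjusted p = 2e-06), and this call held in each of 8 fits with 1 library left out.

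*Bak1* (ENSMUSG00000057789, chromosome 17, 27019810 to 27029009), whose protein sits in the mitochondrial membrane before it opens the pore, measured 39.2, 38.2, 26 and 35.9 CPM in 7d-MI + 3. The 7d-SHAM + 3 libraries had 20.5, 19.7, 21.7 and 23.2 CPM. The groups did not overlap, with replicate 3 of 7d-MI + 3 nearest to the shams (log2 fold change 0.71, SE 0.16, adjusted p = 0.0017). Exons of *Bak1* share 437 bases with *Ggnbp1* on the opposite strand in GENCODE M21, and whether the counting used strand is not given in the sources used here.

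*Bcl2* (ENSMUSG00000057329, chromosome 1, 106538178 to 106714274), the first described survival member of the family, measured 46.5, 54.8, 48.5 and 53.8 CPM in 7d-MI + 3. In 7d-SHAM + 3 it measured 27.6, 30.3, 30.2 and 27.8 CPM. Again the groups did not overlap (log2 fold change 0.81, SE 0.15, adjusted p = 0.00023). The antisense gene *D630008O14Rik* shares 558 exonic bases with it.

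*Casp8* (ENSMUSG00000026029, chromosome 1, 58795374 to 58847503) measured 32.6, 29.2, 18.7 and 27.9 CPM in 7d-MI + 3 and 19.3, 16.5, 13.7 and 15.6 CPM in 7d-SHAM + 3. Replicate 3 of 7d-MI + 3, the lowest, fell within the sham range, while the other 3 were above it (log2 fold change 0.74, SE 0.20, adjusted p = 0.0076). With only replicates 3 and 4 in the 7d-MI + 3 group, the 2 mice that share a name prefix, the calls of *Casp8* and *Bak1* ended (adjusted p = 0.14 and 0.053).

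The other 5 members did not pass in this comparison. *Casp9*, the apoptosome caspase (log2 fold change 0.27, SE 0.23), *Bax* (0.28, SE 0.27) and *Bbc3* (0.16, SE 0.54) had positive values, and the survival genes *Mcl1* (-0.03, SE 0.11) and *Bcl2l1* (-0.16, SE 0.20) had negative ones. *Mcl1* measured 147, 138, 133 and 124 CPM in 7d-MI + 3 and 134, 141, 141 and 138 CPM in 7d-SHAM + 3, with overlap. *Bax*, whose protein moves from the cytosol to mitochondria in dying cells, measured 2.51, 3.93, 3.35 and 3.47 CPM in 7d-MI + 3 and 1.43, 2.94, 3 and 3.5 CPM in 7d-SHAM + 3, also with overlap. In the day-1 groups *Bax* lay between 1.72 and 3.43 CPM.

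**Figure D1:**
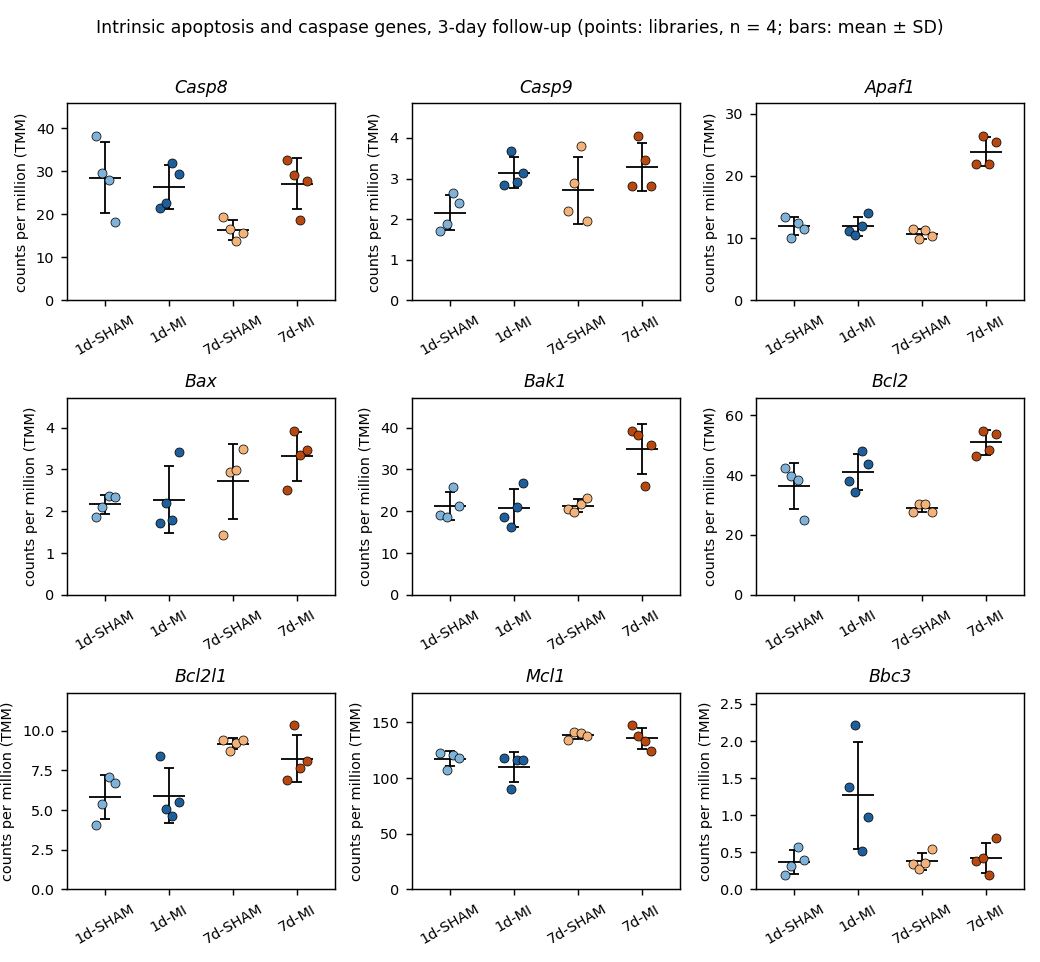
TMM-scaled CPM of the 9 genes in the 3-day libraries, 1 panel per gene, with sham and MI of either age on the horizontal axis. Points are libraries (n = 4 per group), and lines are the mean ± SD. *Apaf1* sits between 21.9 and 26.4 in 7d-MI and between 9.81 and 14 in the other groups, and *Bbc3* reaches its highest value, 2.21, in 1d-MI.

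In 1d-MI + 3 against 1d-SHAM + 3 only *Bbc3* was called, 1 of 9, where 8.46% of all genes tested were called and 4.1% were higher. *Bbc3* (ENSMUSG00000002083, chromosome 7, 16308393 to 16318205) is a p53 target whose protein binds all the survival members. It measured 1.38, 2.21, 0.516 and 0.972 CPM in 1d-MI + 3 and 0.199, 0.317, 0.576 and 0.4 CPM in 1d-SHAM + 3. The groups overlapped, because replicate 3 of 1d-MI + 3 was below the highest sham.

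The call of *Bbc3* rests on few reads: 66, 99, 26 and 55 in 1d-MI + 3 and 10, 15, 26 and 12 in 1d-SHAM + 3. The log2 fold change was 1.76 (SE 0.54, adjusted p = 0.046), and it stayed called in 1 of 8 fits with 1 library left out, the one without 1d-MI + 3 replicate 3. Over these fits the adjusted p of *Bbc3* ran from 0.017 to 0.19, highest without 1d-MI + 3 replicate 2, at a log2 fold change of 1.36. Olfactory receptor genes, taken over the whole family of 1045 as a measure of reads from sequence that is mostly silent in heart (single members are known to be expressed there), took 3.1, 4.07, 1.49 and 2.1 reads per kilobase in the same 4 libraries of 1d-MI + 3, the same order as *Bbc3*. They took 0.584 to 2.29 in 1d-SHAM + 3, 0.525 to 0.67 in 7d-SHAM + 3 and 0.698 to 0.847 in 7d-MI + 3. None of these rates is scaled for library size. At these rates the length of *Bbc3* would hold 6.23, 8.17, 3 and 4.22 reads in 1d-MI + 3. After these background reads were subtracted from every gene, the log2 fold change of *Bbc3* was 2.03 (adjusted p = 0.049). Over all 12 settings other than leaving out 1 library, *Bbc3* was called in 5, and its call ended with no filter (adjusted p = 0.091), limma-voom (0.051), limma-voom with mice blocked by prefix (0.12), the 2 groups alone (0.13) and each of 3 fits with a single prefix in 1 group (0.094 to 0.12). The part of such reads in the remaining difference was not tested.

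**Figure D2:**
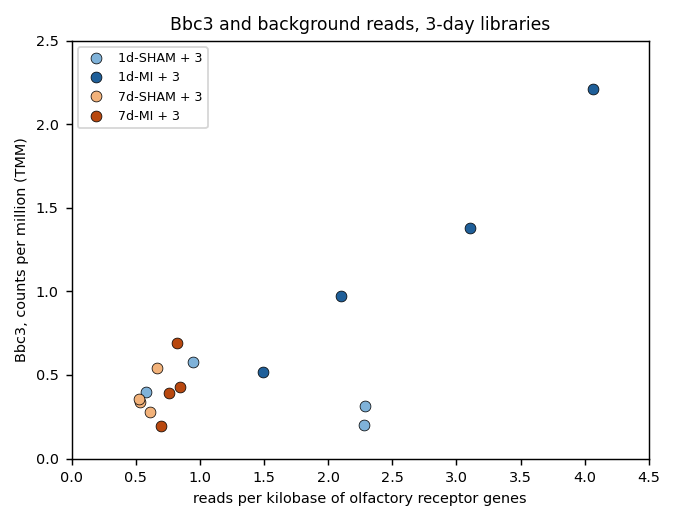
*Bbc3* in TMM-scaled CPM (vertical axis) against the reads per kilobase of olfactory receptor genes (horizontal axis) in the 16 libraries of the 3-day follow-up, colored by group. The reads per kilobase were not scaled for library size. The 4 libraries of 1d-MI + 3 rise together on both axes, up to 2.21 CPM at 4.07 reads per kilobase, while 2 libraries of 1d-SHAM + 3 at 2.28 and 2.29 reads per kilobase hold 0.199 and 0.317 CPM.

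The other 8 members did not pass in 1d-MI + 3 against 1d-SHAM + 3. *Casp9* (ENSMUSG00000028914, chromosome 4, 141793612 to 141815976) came nearest after *Bbc3*. It measured 2.83, 3.69, 2.92 and 3.15 CPM in 1d-MI + 3 and 1.71, 1.88, 2.64 and 2.4 CPM in 1d-SHAM + 3. The groups did not overlap, but at 72 to 178 reads the log2 fold change of 0.55 (SE 0.23) had an adjusted p of 0.14. The values of *Apaf1* (0.01, SE 0.13), *Bak1* (-0.04, SE 0.16), *Bcl2* (0.17, SE 0.15) and *Casp8* (-0.12, SE 0.20), the genes called after the later infarction, had adjusted p of 0.45 or more. In 1d-MI + 3 *Bak1* lay between 16.2 and 26.8 CPM and *Bcl2* between 34.3 and 48 CPM, against 18.7 to 25.9 CPM and 25.1 to 42.4 CPM in 1d-SHAM + 3.

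The difference between these effects was itself tested. It was called for *Apaf1*, *Bak1* and *Bcl2*, 3 of 9, all with a larger effect at day 7, where 13.1% of all genes tested were called and 9.01% had a larger effect at day 7. The log2 difference was 1.15 for *Apaf1* (SE 0.19, adjusted p = 0.00078), 0.75 for *Bak1* (SE 0.23, adjusted p = 0.033) and 0.64 for *Bcl2* (SE 0.21, adjusted p = 0.045). For *Casp8* it was 0.85 (SE 0.28, adjusted p = 0.053), and for *Bbc3* -1.61 (SE 0.75, adjusted p = 0.17). The call of *Apaf1* held in each of 16 fits with 1 library left out and under each of 13 other settings. That of *Bak1* held in 7 of 16 and 8 of 13, and that of *Bcl2* in 4 of 16 and 3 of 13.

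**Figure D3:**
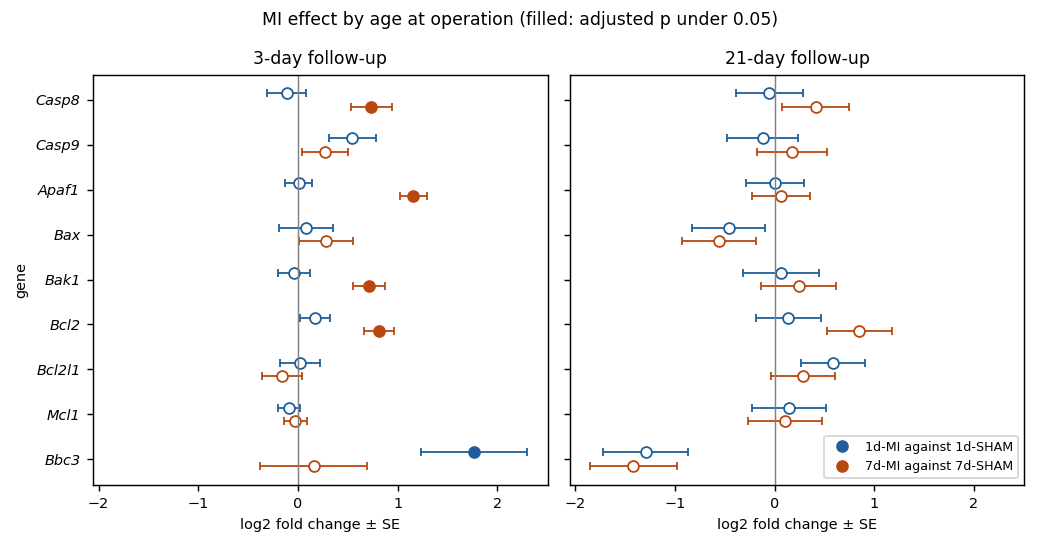
Log2 fold change of MI against sham (horizontal axis, ± SE) for each of the 9 genes at the 3-day (left) and 21-day (right) follow-up, blue for the operation at day 1 and orange for day 7. Filled points have an adjusted p under 0.05. Only 3-day points are filled: *Casp8*, *Apaf1*, *Bak1* and *Bcl2* for day 7 (0.71 to 1.16) and *Bbc3* for day 1 (1.76).

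Between the infarcted hearts themselves, 4 of 9 members differed at 3 days. *Apaf1*, *Bak1* and *Mcl1* were higher in 7d-MI + 3 than in 1d-MI + 3 and *Bbc3* was lower, where 43% of all genes tested were called, 19.4% higher and 23.5% lower. *Apaf1* differed by 1.00 on the log2 scale (SE 0.13, adjusted p = 1.2e-05) and *Bak1* by 0.75 (SE 0.16, adjusted p = 0.0011), although replicate 4 of 1d-MI + 3 at 26.8 CPM of *Bak1* overlapped with replicate 3 of 7d-MI + 3 at 26 CPM. *Bbc3* differed by -1.57 (SE 0.53, adjusted p = 0.021), and this call ended without 1d-MI + 3 replicate 2, the 3-day library with the most olfactory receptor reads (adjusted p = 0.11), and without 7d-MI + 3 replicate 3 (adjusted p = 0.066). *Mcl1* (ENSMUSG00000038612, chromosome 3, 95658788 to 95663176), a survival gene with a short-lived protein, measured 118, 90, 116 and 117 CPM in 1d-MI + 3, all below 7d-MI + 3 (log2 fold change 0.30, SE 0.11, adjusted p = 0.039). The call of *Mcl1* ended without 1d-MI + 3 replicate 2 (adjusted p = 0.14), without 7d-MI + 3 replicate 1, 2 or 3 (adjusted p of 0.053 to 0.11), and under 8 of 12 other settings, with a log2 fold change of 0.07 under upper-quartile scaling. *Mcl1* was also higher in 7d-SHAM + 3 than in 1d-SHAM + 3, without overlap but not called (0.24, SE 0.11, adjusted p = 0.13). The difference of its MI effects between the ages was 0.06 (SE 0.16, adjusted p = 0.87). *Bcl2l1* (0.48, SE 0.20, adjusted p = 0.058), *Bcl2* (0.31, SE 0.15, adjusted p = 0.091) and *Bax* (0.54, SE 0.27, adjusted p = 0.11) did not pass. In the same comparison all 5 fibroblast markers (summed 1363 to 1704 CPM in 7d-MI + 3 and 468 to 733 CPM in 1d-MI + 3), all 4 endothelial markers and all 8 macrophage markers were higher, and their part in these differences was not tested.

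Scaling bears on these age comparisons. With upper-quartile scaling the median log2 fold change of all genes went from -0.13 to -0.37 between the infarcted hearts, from 0.06 to 0.21 for infarction at day 1 against sham, and from 0.03 to -0.21 in the difference of the effects. The split of calls changed with it, from 3956 higher and 4789 lower to 2506 and 6684, from 834 and 888 to 1109 and 304, and from 1833 and 829 to 1019 and 1753. Over all settings other than leaving out 1 library, the log2 fold change of *Apaf1* stayed between 0.77 and 1.09 in the first comparison and its log2 difference between 0.91 and 1.22 in the last.

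The sham hearts were compared between the ages as well. In 7d-SHAM + 3 against 1d-SHAM + 3, *Casp8* was lower and *Bcl2l1* higher, 2 of 9, where 20.3% of all genes were called, 8.12% higher and 12.2% lower. *Casp8* measured 38.2, 29.6, 28.1 and 18.1 CPM in 1d-SHAM + 3 (log2 fold change -0.81, SE 0.20, adjusted p = 0.0089). Its lowest library there, replicate 4, lay within the range of 7d-SHAM + 3. *Bcl2l1* (ENSMUSG00000007659, chromosome 2, 152780668 to 152831728), which encodes BCL-XL, measured 4.08, 5.39, 7.09 and 6.73 CPM in 1d-SHAM + 3 and 9.38, 8.73, 9.22 and 9.42 CPM in 7d-SHAM + 3, without overlap (0.66, SE 0.20, adjusted p = 0.027). The call of *Casp8* held in each of 8 fits with 1 library left out, but in limma-voom with mice blocked by their prefix neither gene was called (adjusted p = 0.085 for *Casp8* and 0.094 for *Bcl2l1*). That of *Bcl2l1* held in 2 of 8, ending without 1d-SHAM + 3 replicate 1 or 2 or any library of 7d-SHAM + 3 (adjusted p of 0.051 to 0.094). In 1d-SHAM + 3 the libraries of 2 name prefixes differed, replicates 1 and 2 being higher in *Casp8* and lower in *Bcl2l1* than replicates 3 and 4. Against replicates 3 and 4 alone, *Casp8* had -0.51 (adjusted p = 0.20) and *Bcl2l1* 0.41 (adjusted p = 0.33). No prefix is shared between groups, and whatever a prefix stands for cannot be told apart from the group. Markers moved with the age of the shams too: the 6 cardiomyocyte markers summed to 12770 to 14850 CPM in 1d-SHAM + 3 and 21810 to 23240 CPM in 7d-SHAM + 3, and 5 of them were higher at the later age. Of 5 fibroblast markers 4 were higher, of 8 macrophage markers 4 were higher, and all 4 proliferation markers were lower. Their part in the differences of *Casp8* and *Bcl2l1* was not tested.

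The rest of the pathway was read from lists of genes, which were written with earlier results of these data known. Their counts are therefore a description and no test of the pathway. In 7d-MI + 3 against 7d-SHAM + 3 the median log2 fold change of all genes was 0.08. Of 63 genes tested on 7 lists 23 rose and 10 fell, 52.4% in all, beside 34% of all genes called and 19.8% higher, so that counts such as 3 of 9 or 2 of 12 lie near the share of all genes. Of 11 apoptosome and executioner genes 2 rose and 5 fell (median -0.17). Those that fell include *Cycs*, cytochrome c itself (-0.92, SE 0.13, adjusted p = 2.3e-05), *Diablo*, which blocks inhibitors of apoptosis (-0.53, SE 0.13, adjusted p = 0.0033) and *Aifm1*, a flavoprotein of the intermembrane space (-0.48, SE 0.15, adjusted p = 0.018). All 3 encode proteins of the space between the mitochondrial membranes. Of 9 BH3-only relatives 2 rose, *Pmaip1* (NOXA, 1.73, SE 0.44, adjusted p = 0.0045) and *Bid*, the link from caspase-8 (1.03, SE 0.29, adjusted p = 0.008), with a list median of -0.08. Of 10 death receptor genes 9 were tested and 3 rose (median 0.31): *Tnfrsf10b*, the TRAIL receptor (1.82, SE 0.32, adjusted p = 0.00015), *Tnfrsf1a* and *Ripk1*.

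Of 10 genes of pyroptosis and necroptosis 7 rose and none fell, with a median of 1.16. *Ripk3*, the kinase of necroptosis (1.81, SE 0.28, adjusted p = 4e-05), *Il1b* (2.71, SE 0.52, adjusted p = 0.00037) and *Nlrp3*, an inflammasome sensor (3.48, SE 0.74, adjusted p = 0.001), were among the 7. Of 6 inhibitors of apoptosis 3 rose and 1 fell (median 0.62), among them *Naip2* (2.83, SE 0.41, adjusted p = 2.7e-05). Of 6 other BCL-2 guardians and effectors 4 rose and 1 fell (median 2.19), and 3 of the 4 are the near-identical *Bcl2a1* copies, between which reads may be split. Of 12 genes of the p53 pathway 2 rose and 3 fell (median 0.10), with *Trp53* at 1.76 (SE 0.33, adjusted p = 0.00034).

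In 1d-MI + 3 against 1d-SHAM + 3 3 of the same 63 genes were called (4.76%, beside 8.46% of all genes, or 4.1% higher), each higher: *Bnip3*, a BH3-only gene of mitophagy and low oxygen (1.05, SE 0.21, adjusted p = 0.0056), *Casp1*, the inflammasome caspase (1.63, SE 0.43, adjusted p = 0.027), and *Bcl2a1b*. In the difference of the effects, *Cycs* (-0.93, SE 0.19, adjusted p = 0.0034), *Birc3* (1.17, SE 0.28, adjusted p = 0.0095) and *Ripk3* (1.25, SE 0.38, adjusted p = 0.037) were among those called.

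Markers of other cells moved with the same comparisons. The summed level of 8 macrophage markers was 212 to 426 CPM in 7d-MI + 3 against 59.8 to 79.4 CPM in 7d-SHAM + 3, and 7 of the 8 rose. After the operation at day 1 it was 58.1 to 156 CPM with infarction and 29.3 to 43.6 CPM without, and 4 of 8 rose. The sum of 6 neutrophil markers was 34.5 to 67.4 CPM with infarction at day 7 and 2.35 to 4.01 CPM in its shams, and 19.4 to 24.2 CPM with infarction at day 1 and 3.26 to 7.21 CPM in its shams. The sum of 4 proliferation markers was 541 to 665 CPM in 7d-MI + 3 against 126 to 234 CPM in 7d-SHAM + 3. The 6 cardiomyocyte markers summed to 11960 to 21290 CPM in 7d-MI + 3 and 21810 to 23240 CPM in 7d-SHAM + 3, and 4 of them fell. Genes of the mitochondrial genome took 40.3% to 43.3% of reads in 7d-MI + 3 and 54.9% to 61% in 7d-SHAM + 3. The part of these shifts in the changes of *Apaf1*, *Bak1*, *Bcl2* and *Casp8*, and of the genes on the 7 lists, was not tested.

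At the 21-day follow-up none of the 9 members was called in any of the 5 comparisons by edgeR's quasi-likelihood test. The paper, by contrast, places *Casp9* under apoptosis in a 21-day network of genes it found to differ between the MI groups. It also shows a KEGG apoptosis pathway for both follow-ups. Here *Casp9* measured 6.19, 6.32 and 8.87 CPM in 7d-MI + 21 and 6.3, 4.47 and 4.26 CPM in 1d-MI + 21, with overlap. *Casp9* differed by 0.51 log2 units with an SE of 0.35, and the edgeR test gave adjusted p = 0.89. The reason for this disagreement was not tested. Among all genes, 0.0325% were called in 7d-MI + 21 against 1d-MI + 21, 0.0162% in 1d-MI + 21 against 1d-SHAM + 21 and 0% in each of the other 3, although 1606, 3599, 4111, 442 and 927 genes had an unadjusted p under 0.05 in the order 7d-MI + 21 against 1d-MI + 21, 1d-MI + 21 against 1d-SHAM + 21, 7d-MI + 21 against 7d-SHAM + 21, the shams, and the difference of the effects. The biological coefficient of variation was 0.567 here and 0.331 at 3 days, and the SE of *Apaf1* was 0.29 or more in each 21-day comparison against 0.13 in the 3-day comparisons of 2 groups. The count of 0 genes in 7d-MI + 21 against 7d-SHAM + 21 depends on the fit. Without 7d-SHAM + 21 replicate 1, 5903 of 27303 genes tested (21.6%) were called, and without replicate 3, 11 genes were. With every library kept, 383 genes were called with no filter and 14 by limma-voom. In that comparison DESeq2 called *Bbc3* (adjusted p = 0.041) and no other member, beside 1028 of all genes (4.17%), and limma-voom called no member. By edgeR, no gene of the 7 pathway lists was called at 21 days, and the lists were not counted with the other tools.

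*Bbc3* had the lowest unadjusted p of the 9 against the shams of either age. It measured 1.25, 1.65 and 1.57 CPM in 7d-MI + 21 and 1.71, 4.57 and 5.73 CPM in 7d-SHAM + 21 (log2 fold change -1.42, SE 0.43, adjusted p = 0.22). In 1d-MI + 21 it measured 0.954, 1.99 and 2.02 CPM and in 1d-SHAM + 21 3.68, 4.44 and 4.08 CPM (-1.29, SE 0.43, adjusted p = 0.29). Both pairs of groups were without overlap, the MI libraries being lower. The share of all genes without overlap was not counted at either follow-up. *Bax* was also without overlap in 1d-MI + 21 against 1d-SHAM + 21, as was *Apaf1* between the MI groups and between the shams. Neither was called. Olfactory receptor reads per kilobase, not scaled for library size, were 1.31 to 1.74 in 7d-MI + 21 and 0.835 to 7.27 in 7d-SHAM + 21. They were 0.745 to 12.1 in 1d-MI + 21 and 2.26 to 4.71 in 1d-SHAM + 21. At these rates the length of *Bbc3* would hold 2.62, 3.48 and 3.48 of its 189, 102 and 159 reads in 7d-MI + 21. In 7d-SHAM + 21 it would hold 1.68, 14.6 and 13.7 of 161, 255 and 129. In 1d-MI + 21 it would hold 1.5, 1.53 and 24.3 of 73, 91 and 568. In 1d-SHAM + 21 it would hold 6.12, 4.54 and 9.45 of 267, 110 and 180. With these reads subtracted from every gene, *Bbc3* was called against neither sham group, as without the subtraction. The part of such reads in its values was not tested.

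*Bcl2* measured 27.5, 16.2 and 23.4 CPM in 7d-MI + 21, above all 3 libraries of 1d-MI + 21 (12.9, 11.4 and 9.13 CPM) and just above those of 7d-SHAM + 21 (16.1, 8.9 and 12.2 CPM). Its log2 fold change was 1.00 against 1d-MI + 21 (SE 0.33, adjusted p = 0.48) and 0.85 against 7d-SHAM + 21 (SE 0.33, adjusted p = 0.26). Without 7d-SHAM + 21 replicate 1, *Bcl2* and *Bbc3* were both called against the remaining 7d shams (adjusted p = 0.029 and 0.0072), 2 of 9 where 21.6% of all genes were called. Those remaining shams held 7.27 and 6.84 olfactory receptor reads per kilobase, against 0.835 in the library left out. Ribosomal RNA loci took 0.523% and 63.7% of their reads, and 31.3% in the library left out. The part of such reads in these calls was not tested. *Bcl2l1* measured 12.5, 16.7 and 16.8 CPM in 7d-MI + 21 and 33, 38.3 and 18.6 CPM in 1d-MI + 21, without overlap (-0.97, SE 0.32, adjusted p = 0.5). The shams differed in the same direction, also without overlap: 9.81 to 15.6 CPM in 7d-SHAM + 21 and 17.4 to 21.6 CPM in 1d-SHAM + 21. Their log2 fold change was -0.67 (SE 0.32), and the difference of the MI effects was -0.30 (SE 0.45), neither called. *Apaf1*, the member raised most 3 days after infarction at day 7, had 12.5, 10.2 and 8.95 CPM in 7d-MI + 21 and 10.2, 10.4 and 9.68 CPM in 7d-SHAM + 21 (0.06, SE 0.29, adjusted p = 0.92). Several marker sums also set 7d-MI + 21 apart. Fibroblast markers summed to 1129 to 1672 CPM there, 419 to 881 CPM in 7d-SHAM + 21 and 492 to 684 CPM in 1d-MI + 21, and macrophage markers to 294 to 317, 176 to 213 and 228 to 290 CPM. Adipocyte markers summed to 11.1 to 17.8 CPM in 7d-MI + 21 and at most 7.06 CPM in 7d-SHAM + 21. The sum of 3 atrial markers was 96 to 673 CPM in 7d-MI + 21 and 2.9 to 15 CPM in 7d-SHAM + 21, but overlapped with 1d-MI + 21 (4.47 to 411 CPM). The part of these markers in the values of *Bcl2*, *Bbc3* and *Bcl2l1* was not tested.

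**Figure D4:**
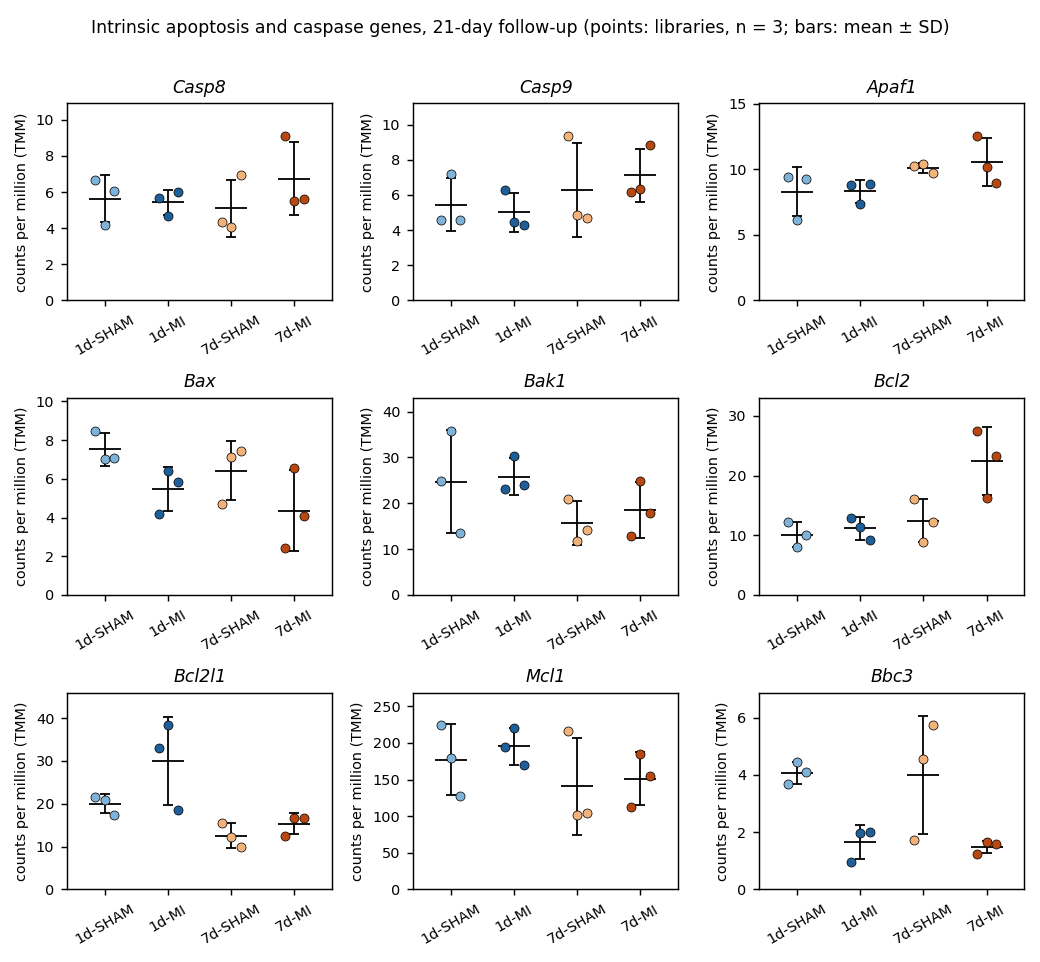
TMM-scaled CPM of the 9 genes in the 21-day libraries, by group (n = 3, points are libraries and lines the mean ± SD). *Bcl2* reaches 16.2 to 27.5 in 7d-MI, *Bbc3* stays at 2.02 or below in both MI groups, and the groups of *Apaf1* lie between 6.13 and 12.5.

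Per length, *Mcl1* was the most abundant of the 9 in every group. Its TMM-scaled RPKM was 34.3 ± 1.98 in 1d-SHAM + 3 and 39.7 ± 2.82 in 7d-MI + 3 (mean ± SD, n = 4), and 41.1 ± 19.2 to 57.1 ± 7.3 over the 21-day groups (n = 3). In 7d-MI + 3 *Bak1* (14.5 ± 2.51) and *Casp8* (9.36 ± 2.06) came next, then *Bcl2* (5.56 ± 0.44), *Bax* (3.81 ± 0.682), *Apaf1* (2.65 ± 0.257) and *Bcl2l1* (1.8 ± 0.324). *Casp9* (0.631 ± 0.114) and *Bbc3* (0.212 ± 0.102) were the lowest. In 7d-SHAM + 3 *Bcl2l1* (2 ± 0.0693) was above *Apaf1* (1.19 ± 0.0871), the reverse of their order in 7d-MI + 3. In 1d-SHAM + 3 *Casp8* (9.85 ± 2.85) and *Bak1* (8.84 ± 1.36) differed by less than their spread, as did *Apaf1* (1.31 ± 0.16) and *Bcl2l1* (1.27 ± 0.299).

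Within the 21-day libraries *Bak1* or *Bax* was second to *Mcl1*. In 1d-SHAM + 21 *Bak1* had 10.3 ± 4.63 and *Bax* 8.65 ± 0.964, and *Casp8* had 1.95 ± 0.445. The log2 ratio of *Bax* over *Bcl2*, killer over survivor, was -0.82 ± 0.48 in 1d-MI + 3 and -0.56 ± 0.18 in 7d-MI + 3 (n = 4), with -0.65 ± 0.46 and -0.09 ± 0.55 in their shams. At 21 days it was 2.36 ± 0.52 in 1d-MI + 21 with 2.98 ± 0.19 in its shams, and 0.95 ± 1.11 in 7d-MI + 21 with 2.46 ± 0.76 in its shams (n = 3). *Bcl2l1* over *Mcl1* lay between -4.79 ± 0.38 and -4.34 ± 0.08 over the 3-day groups. *Bak1* over *Bax* was 1.93 ± 0.42 in 7d-MI + 3 and 1.57 ± 0.54 in 7d-SHAM + 3. The length behind the deposited RPKM of *Bax* (ENSMUSG00000003873, chromosome 7, 45461697 to 45466898) was 869 bases and its exons in GENCODE M21 cover 1576, so that the level of *Bax* per length depends on the gene model. *Bax* also shares 192 exonic bases with *Gm45808* on the same strand, and *Casp9* 94 with each of *Cela2a* and *Ctrc* on the opposite one.

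**Figure D5:**
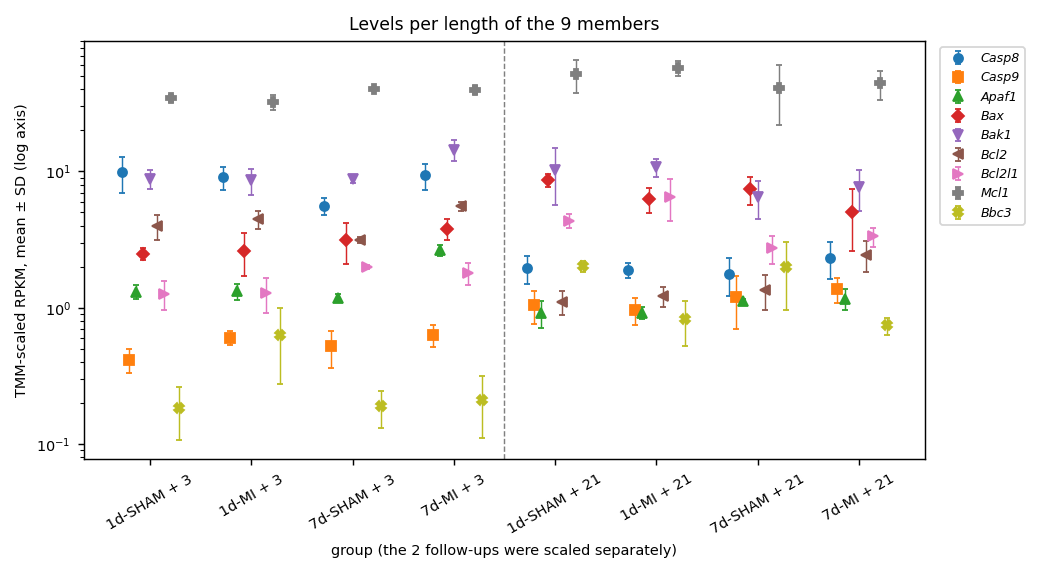
TMM-scaled RPKM (log axis, mean ± SD) of the 9 genes in the 8 groups, with a dashed line between the follow-ups, which were scaled separately. *Mcl1* is highest in every group, and *Bbc3* or *Casp9* is lowest in each 3-day group.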

How the data were processed

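For each of 28 libraries the authors deposited read counts per gene, with CPM, RPKM and log2 values of both. The submitters' processing notes name TopHat2 2.0.11, Bowtie2 2.2.2, Cufflinks 2.2.1 and GRCm38. How reads were counted, whether by strand, and on which annotation was not given in the sources used here. Counts of the 2 libraries deposited as 2 lanes were summed. Genes were filtered with filterByExpr (minimum count 10) and tested within each follow-up with edgeR 4.0.16 (R 4.3.3): TMM, robust quasi-likelihood fit with 1 mean per group and all groups in the fit, and Benjamini-Hochberg adjustment. The 5 comparisons per follow-up were MI between ages, MI against sham at each age, sham between ages, and the difference of the MI effects. The deposited RPKM gave only the gene lengths, and the deposited CPM and log2 values were not used in tests. The test was run on simulated data first. Alternatives used limma 3.58.1 (voom), DESeq2 1.42.0, other scalings, filters and subsets of libraries. The members and gene lists were chosen with earlier results of these data known. All 9 members are named, and from each other list at most the 3 called genes of smallest p per comparison. Counting intervals are not given. No 2 libraries of the same group agreed within sampling noise, and libraries of different groups were not compared in this way.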

Additional observations from a re-analysis of the deposited data

Results flagged for a closer look

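The MI effect differed between the ages at 3 days, by the test of the difference itself, for *Apaf1* (1.15 on the log2 scale), *Bak1* (0.75) and *Bcl2* (0.64), each larger after the operation at day 7. Leaving out 1 library kept the call in 16 of 16 fits for *Apaf1*, 7 of 16 for *Bak1* and 4 of 16 for *Bcl2*. Of all genes tested, 13.1% were called in this test.

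*Mcl1* in 1d-MI + 3 replicate 2 was 89.99 CPM after TMM scaling, while the other 3 libraries of the group lay between 116 and 118. Its gap was 0.943 of the range of the group and it passed Dixon's 95% critical value. It was the only such library among 36 groups of values tested (9 genes in 4 groups), where chance gives about 1 in 20. The same library had the most olfactory receptor reads of the 3-day follow-up (4.07 per kilobase) and the highest *Bbc3* (2.21 CPM).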

How the results depend on the processing

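The number of members called in 7d-MI + 3 against 1d-MI + 3 was 4, and it was 2 with a mean count of at least 50 or with 7d-MI + 3 replicates 3 and 4 only, which share a name prefix. In 1d-MI + 3 against 1d-SHAM + 3 it was 1, and it was 0 with no filter, a mean count of at least 50 (which removes *Bbc3*), limma-voom, limma-voom with the prefix as a random block, the 2 groups alone, or 1 name prefix only (1d-SHAM + 3 replicates 1 and 2, or 3 and 4, or 1d-MI + 3 replicates 2 to 4). In 7d-MI + 3 against 7d-SHAM + 3 it was 4, and 2 with 7d-MI + 3 replicates 3 and 4 only. In the 3-day shams it was 2, and 0 with the prefix as a random block or with 1d-SHAM + 3 replicates 3 and 4 only. For the difference of the effects it was 3, and 1 with upper-quartile scaling, the prefix as a random block, 1d-MI + 3 replicates 2 to 4 only, or 7d-MI + 3 replicates 3 and 4 only. Except for *Bbc3* under the stricter filter, the cause was not tested. Leaving out 1 library gave 2 to 5, 0 to 1, 4 to 4, 1 to 3 and 1 to 4 members in these 5 comparisons. At 21 days it gave 0 to 2 in 7d-MI + 21 against 7d-SHAM + 21, the 2 without 7d-SHAM + 21 replicate 1, and 0 to 0 in the others, and DESeq2 gave 1 in the same comparison. The deposited RPKM, in place of TMM-scaled RPKM, changed 8 places in the order of members within groups. The background subtraction and single-prefix settings were chosen after seeing the data. No value that was called, in the reported fit or in the alternative, changed sign. Of 90 log2 fold changes (9 genes in 10 comparisons) 35 took the other sign in some of their alternatives, 156 of 1786 fits in all, and all 35 had an adjusted p of 0.45 or more, so that the data give them no direction.

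With the animal number as a replicate block at 21 days, 0 members were called in each of the 5 comparisons, as without it. The numbers did not pair the libraries: over 15 same-numbered pairs the correlation of deviations ran from -0.188 to 0.544 (median 0.05), with 6 over 0.1. Depth limits *Bbc3* most, at 9 to 99 reads in the 3-day libraries.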
